A study of Mus musculus with 6 samples.

Results

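Toll-like receptors are membrane proteins with which cells of the innate immune system, and B cells, detect microbial lipids, proteins and nucleic acids. The 10 genes described here, Tlr1 to Tlr9 and Tlr13, were taken by symbol from a deposited spleen expression table of 26452 genes, in which all 10 were found once. The spleens came from male mice aged 10 weeks in 2 groups of 3 animals, with 1 library per animal. The knockout group is Was -/- (129S6/SvEvTac-Wastm1Sbs/J) and the control group is wild-type 129S6/SvEvTac. Was encodes an activator of actin assembly made in blood cells, and no label says what the allele does to its sequence. RNA was taken from whole tissue, so every cell type of the organ contributed. Each library keeps its label's animal number, KO451, KO452 and KO457 for knockout and WT453, WT454 and WT455 for wild type. The comparison asks whether receptor transcripts differ between the genotypes.

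The receptors fall into a cell surface set and an endosomal set. At the surface, Tlr2 pairs with Tlr1 or Tlr6 to bind bacterial lipoproteins, Tlr4 with its partner Ly96 binds lipopolysaccharide, and Tlr5 binds flagellin. In endosomes, Tlr3 binds double-stranded RNA, Tlr7 binds single-stranded RNA, Tlr9 binds DNA with unmethylated CpG and Tlr13 binds bacterial ribosomal RNA, while mouse Tlr8 is a close relative of Tlr7 whose ligands are less settled. The nucleic acid receptors need the chaperone Unc93b1 to reach endosomes and are cut there by proteases, and nearly all receptors signal through the adaptor Myd88, with Ticam1 serving Tlr3 and part of the Tlr4 signal. In the spleen, B cells, macrophages and dendritic cells are known for different sets of these receptors, and Tlr7 and Tlr9 have been studied in Was-deficient B cells in relation to autoantibodies.

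Libraries held between 30661759 and 38402758 reads assigned to genes. Was itself was lower in every knockout library (8.67 to 8.99) than in every wild-type library (12.02 to 12.68) on the log2(normalized count + 1) scale, a log2 fold change of -3.66 (limma, adjusted p = 0.0117), so each library carried the level its label calls for. WT453 stood apart from the rest. It was the lowest of the 6 libraries in 25% of 22071 genes with a mean normalized count of at least 1 and the highest in 31.7%. Log2 fold changes of the receptors, and of the pathway genes named by rule, are therefore given from all 6 libraries and again without it.

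All 10 genes are protein-coding, and coordinates are those of GRCm38, the build the submitters' processing notes name. Tlr1 (ENSMUSG00000044827, 64924679 to 64933563) and Tlr6 (ENSMUSG00000051498, 64952031 to 64960097) lie side by side on the minus strand of chromosome 5. Tlr7 (ENSMUSG00000044583, 167304929 to 167330558) and Tlr8 (ENSMUSG00000040522, 167242696 to 167264329) are likewise neighbours on the minus strand of chromosome X, which also carries Tlr13 (ENSMUSG00000033777, 106143204 to 106160493, plus strand). The others are single genes. Tlr2 (ENSMUSG00000027995) is on chromosome 3 at 83836272 to 83841767, minus strand, and Tlr3 (ENSMUSG00000031639) on chromosome 8 at 45395665 to 45411080, minus strand. Tlr4 (ENSMUSG00000039005) is on chromosome 4 at 66827584 to 66930284, plus strand, Tlr5 (ENSMUSG00000079164) on chromosome 1 at 182954788 to 182976044, plus strand, and Tlr9 (ENSMUSG00000045322) on chromosome 9 at 106222598 to 106226883, plus strand. Of the exon bases of Tlr3, 7.32% are shared with the antisense gene Gm45542, and since no strand setting is given, reads there cannot be told apart. No other member overlapped a gene model.

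Tlr1 and Tlr6 share long stretches of coding sequence, which bears on every value given for them. Of the 50-base words in the longest Tlr1 transcript, 15.3% also occur in Tlr6, and of those in Tlr6 12.5% occur in Tlr1. The other 8 members had 0% of such words in another gene. The longest identical run of the coding sequences was 229 bases, from position 1468 of 2385 in Tlr1 and from position 1507 of 2418 in Tlr6. The 90 bases below cover its start and the 60 bases before it, from the GENCODE transcripts, with the 1 base that differs in capitals, at chr5:64925736-64925825 for Tlr1 and chr5:64954027-64954116 for Tlr6, minus strand.

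Tlr1: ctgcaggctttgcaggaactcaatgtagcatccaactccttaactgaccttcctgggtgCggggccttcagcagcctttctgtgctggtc
Tlr6: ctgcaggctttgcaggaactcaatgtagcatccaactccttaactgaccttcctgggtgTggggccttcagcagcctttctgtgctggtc

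A read placed wholly in such a run cannot be given to one gene, and how the authors counted such reads is not given in the sources used here. Values of Tlr1 and Tlr6 are uncertain to that extent.

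None of the 10 receptors passed the test between the genotypes. By limma with Benjamini-Hochberg adjustment over 22071 genes, 0 of 10 were called at an adjusted p under 0.05, where 0.00906% of all genes were called. Without adjustment, 0 of 10 had a limma p under 0.05, beside 11.0% of all genes. By the FDR of the authors' deposited table, none of the receptors (0 of 10) is under 0.05, beside 3.58% of its genes, with FDR values from 0.436 for Tlr1 to 0.987 for Tlr9. The estimates were higher in knockout for 6 receptors and lower for 4, with a median log2 fold change of 0.32, against -0.03 over all genes tested. In bulk tissue, fewer cells of a type and less RNA per cell cannot be told apart.

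**Figure D1:**
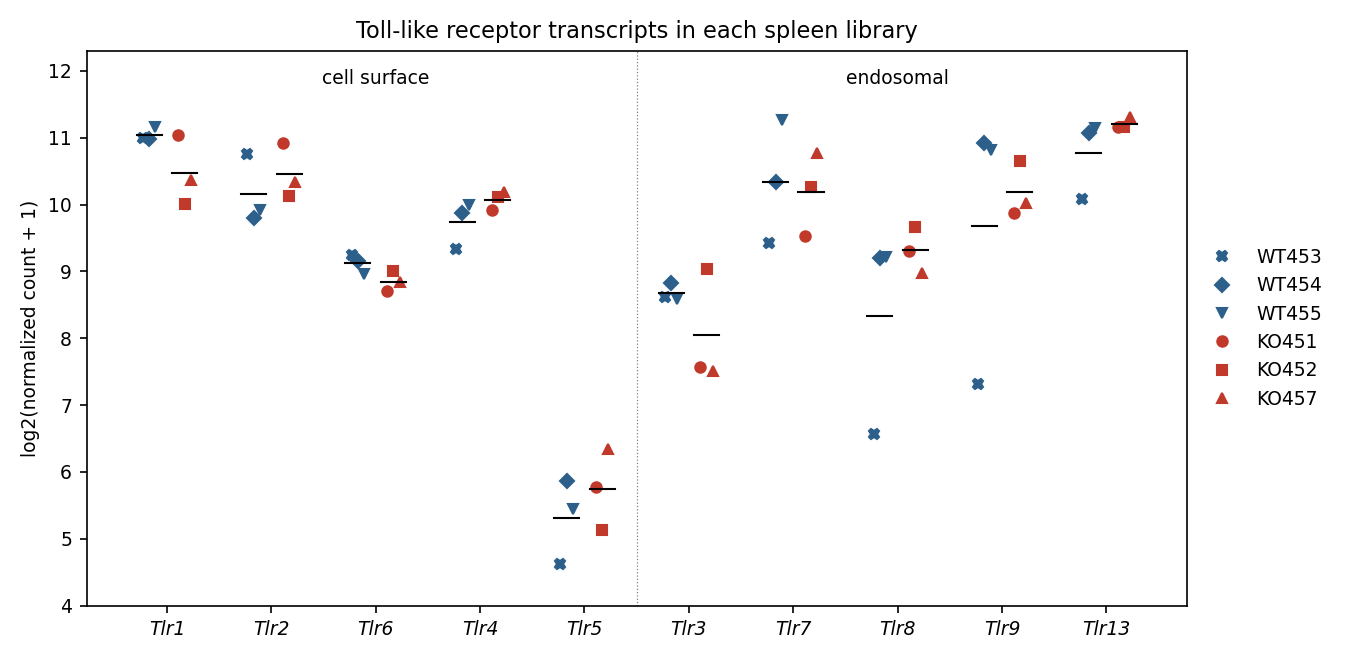
Log2(normalized count + 1) of each receptor in the 6 libraries, with wild-type libraries in blue and knockout libraries in red. Black bars are group means, and WT453 (crosses) lies far below the other libraries in Tlr8 and Tlr9.

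Among the lipoprotein receptors, Tlr1 was the member with the smallest p. Its log2 normalized counts were 11.04 in KO451, 10.01 in KO452 and 10.37 in KO457, against 10.99 in WT453, 10.98 in WT454 and 11.16 in WT455. The wild-type libraries lay close together, KO452 and KO457 lay below all of them, and KO451 lay among them. The log2 fold change was -0.57 with a 95% interval of -1.24 to 0.10 (limma, unadjusted p = 0.0829, adjusted p = 0.507), and mean abundance was 65.8 CPM (reads scaled to the library total) in wild-type and 41.3 CPM in knockout libraries. This estimate did not rest on WT453, being -0.60 without it, but moved from -0.86 without KO451 to -0.34 without KO452.

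Tlr2, the shared partner, had log2 values of 10.92 in KO451, 10.12 in KO452 and 10.34 in KO457, and of 10.76 in WT453, 9.80 in WT454 and 9.91 in WT455. KO451 and WT453 were the 2 high libraries, one of each genotype, and the groups overlapped. Its log2 fold change was 0.30 (95% interval -0.49 to 1.09, limma adjusted p = 0.762), and 0.60 without WT453 (adjusted p = 0.317). It fell toward 0 when the other high library was left out, to 0.07 without KO451, and was 0.12 without WT454 and 0.18 without WT455. Tlr6, the alternative partner, had 8.70, 9.0 and 8.84 in KO451, KO452 and KO457 and 9.25, 9.15 and 8.96 in WT453, WT454 and WT455. Only WT455 fell within the range of the knockout libraries. Its log2 fold change was -0.27 (95% interval -0.79 to 0.24, limma adjusted p = 0.683), an interval that excludes a 2-fold change in either direction, and -0.21 without WT453.

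Tlr4, the lipopolysaccharide receptor, varied little. Log2 values were 9.91, 10.12 and 10.18 in KO451, KO452 and KO457 and 9.34, 9.87 and 9.99 in WT453, WT454 and WT455. WT453 was the lowest library, and WT455 lay inside the knockout range. The log2 fold change of 0.34 (95% interval -0.23 to 0.91, limma adjusted p = 0.629) also excludes a 2-fold change in either direction, and was 0.14 without WT453. Tlr5, the flagellin receptor, was the rarest member, at a mean of 1.29 CPM in wild-type and 1.56 CPM in knockout libraries. It had log2 values of 5.77, 5.13 and 6.34 in KO451, KO452 and KO457 and of 4.63, 5.86 and 5.45 in WT453, WT454 and WT455, and only KO457 lay outside the wild-type range. Its log2 fold change was 0.44 (95% interval -0.79 to 1.66, limma adjusted p = 0.780), but 0.09 without WT453 and 0.14 without KO457, so that leaving out either removed most of the estimate. It was 0.74 without KO452 and 0.71 without WT454.

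Of the endosomal receptors, Tlr3 split the knockout libraries. KO452 had a log2 value of 9.04, the highest of all 6, while KO451 had 7.58 and KO457 7.51, the lowest. The wild-type libraries were close together, at 8.62 in WT453, 8.83 in WT454 and 8.58 in WT455. The genotype difference on the log2 scale was -0.63 (95% interval -1.66 to 0.39, limma adjusted p = 0.611) and ranged from -1.14 without KO452 to -0.37 without KO457, with -0.66 without WT453.

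Tlr7 spread widely in both groups. It had 9.52, 10.27 and 10.77 in KO451, KO452 and KO457 and 9.43, 10.33 and 11.26 in WT453, WT454 and WT455 on the log2 scale. The knockout range lay wholly inside the wild-type range. The estimated log2 fold change was -0.15 (95% interval -1.34 to 1.04, limma adjusted p = 0.945), and its sign changed when KO451 (0.18) or WT455 (0.31) was left out. Without WT453 it was -0.61 (adjusted p = 0.521).

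In Tlr8 and Tlr9, WT453 lay farthest from the other libraries. Tlr8 had log2 values of 9.31, 9.66 and 8.97 in KO451, KO452 and KO457, of 9.21 in WT454 and 9.22 in WT455, and of 6.57 in WT453. The log2 fold change of 0.98 (95% interval -0.66 to 2.63, limma adjusted p = 0.627) was the largest among the members, and became 0.10 (95% interval -0.52 to 0.72, adjusted p = 0.832) without WT453. Tlr9 had 9.87, 10.66 and 10.03 in KO451, KO452 and KO457, 10.92 in WT454, 10.81 in WT455 and 7.31 in WT453. With WT453 the log2 fold change was 0.50 (95% interval -1.65 to 2.66, limma adjusted p = 0.875). Without it the direction turned, to -0.68 (95% interval -1.41 to 0.04, adjusted p = 0.287), and each knockout library was then below both wild-type libraries. Tlr2 and Tlr13 were also separated without WT453, with each knockout library higher. The share of all genes separated in this way was not computed. Mean abundance of Tlr9 was 41.0 CPM in wild-type and 34.1 CPM in knockout libraries. The direction in mean CPM and in mean log2 value thus differed even with all 6 libraries. CPM is scaled by library total and the log2 values by size factors, so the 2 differ in scaling as well as in scale.

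Tlr13 was the 1 member whose groups did not overlap, with every knockout library higher, where 9.54% of all genes had every knockout library higher and 9.94% every knockout library lower. It had log2 values of 11.16 in KO451, 11.16 in KO452 and 11.31 in KO457, against 10.09 in WT453, 11.06 in WT454 and 11.15 in WT455. The knockout libraries lay close together and 2 of the wild-type libraries lay just beneath them. Its log2 fold change was 0.44 (95% interval -0.27 to 1.16, limma adjusted p = 0.612), and 0.11 (95% interval -0.15 to 0.36) without WT453.

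**Figure D2:**
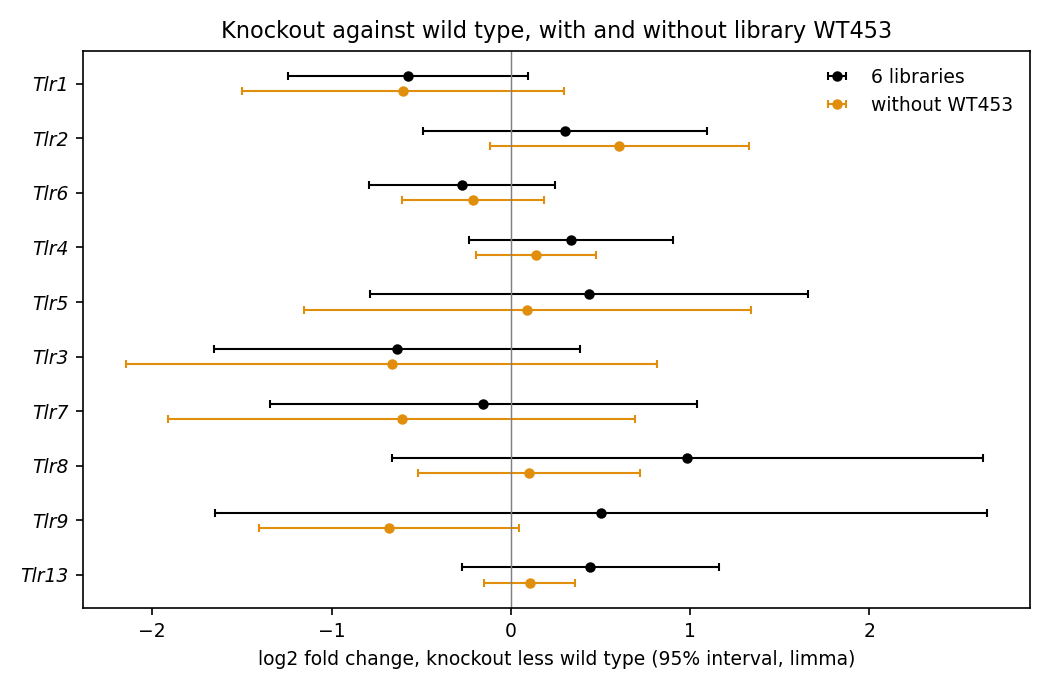
Log2 fold change of each receptor (knockout less wild type) with its 95% interval from limma, for all 6 libraries in black and without WT453 in orange. Every interval spans 0 in both fits, and the estimates for Tlr8 (0.98 to 0.10) and Tlr9 (0.50 to -0.68) move most when WT453 is left out.

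The receptors were then set against each other within a library, which is free of the scaling between libraries. For 3 pairs the difference of log2 values was compared between genotypes by a two-sided exact permutation test, which for 3 against 3 cannot go below p = 0.1 and so could not have passed 0.05 for any pair. Tlr7 less Tlr8 averaged 0.87 ± 0.82 (SD, n = 3) for knockout and 2.01 ± 0.87 (SD, n = 3) for wild type (exact p = 0.2, adjusted p = 0.6 over the 3 pairs). That balance overlapped between the groups, with 1.80 in KO457 above the 1.13 of WT454. Tlr7 less Tlr9 ran from -0.58 in WT454 to 2.11 in WT453 and lay between -0.39 and 0.75 in knockout libraries (exact p = 0.7, adjusted p = 0.7). Tlr1 less Tlr6, the balance of the alternative Tlr2 partners, averaged 1.63 ± 0.67 (SD, n = 3) for knockout and 1.93 ± 0.24 (SD, n = 3) for wild type (exact p = 0.5, adjusted p = 0.7). With so few animals the test does not say whether the balances differ. For 2 of the 3 pairs the sign rested on 1 library. Knockout less wild type, Tlr7 less Tlr9 was -0.66 and became 0.07 without WT453. Tlr1 less Tlr6 was -0.30 and became 0.0083 without KO452.

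To compare levels between receptors, reads were scaled by exon length and library total (RPKM). Averaged over the 6 libraries, Tlr1 was highest at 16 ± 4.88 RPKM (SD, n = 6), followed by Tlr13 at 14.4 ± 3.42, Tlr2 at 12.8 ± 3.59, Tlr9 at 10.8 ± 6.26 and Tlr7 at 9.94 ± 5.16. Neighbours among these 5 could not be ordered, since each was above the next in only 3 or 4 of 6 libraries. Tlr7 exceeded Tlr4, at 5.16 ± 0.935 RPKM, in 6 of 6 libraries. Tlr4, Tlr8 (4.43 ± 2.02) and Tlr6 (4.07 ± 0.766) formed a middle group with overlapping values. Tlr3 (2.05 ± 0.888) was below Tlr6 in 6 of 6 libraries, and Tlr5 (0.297 ± 0.112) was the lowest member in 6 of 6.

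The first place in that order was held by different receptors. Tlr1 led in all 3 wild-type libraries, with 18.3 RPKM in WT453, 19.3 in WT454 and 21.4 in WT455. In knockout libraries Tlr13 led in KO452 (15.9 RPKM) and KO457 (16.2), and Tlr2 led in KO451 (17.4). The 10 receptors summed to 75.7 ± 3.17 RPKM (SD, n = 3) for knockout and to 84.4 ± 20.6 (SD, n = 3) for wild type, with 61.2 in WT453, 91.0 in WT454 and 101 in WT455. Cell surface receptors made up 72.1% of that sum in WT453 and 56.8% in KO451, but between 38.6% and 44.0% in the other 4 libraries. The endosomal sum was 17.1 RPKM in WT453, against 32.2 to 59.1 in the others. CPM and RPKM divide by the library total, whereas the log2 values and fold changes use size factors. Each knockout library had more reads for its size factor than each wild-type library. Knockout levels in CPM and RPKM, these sums included, therefore stand lower against wild type than on the log2 scale.

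**Figure D3:**
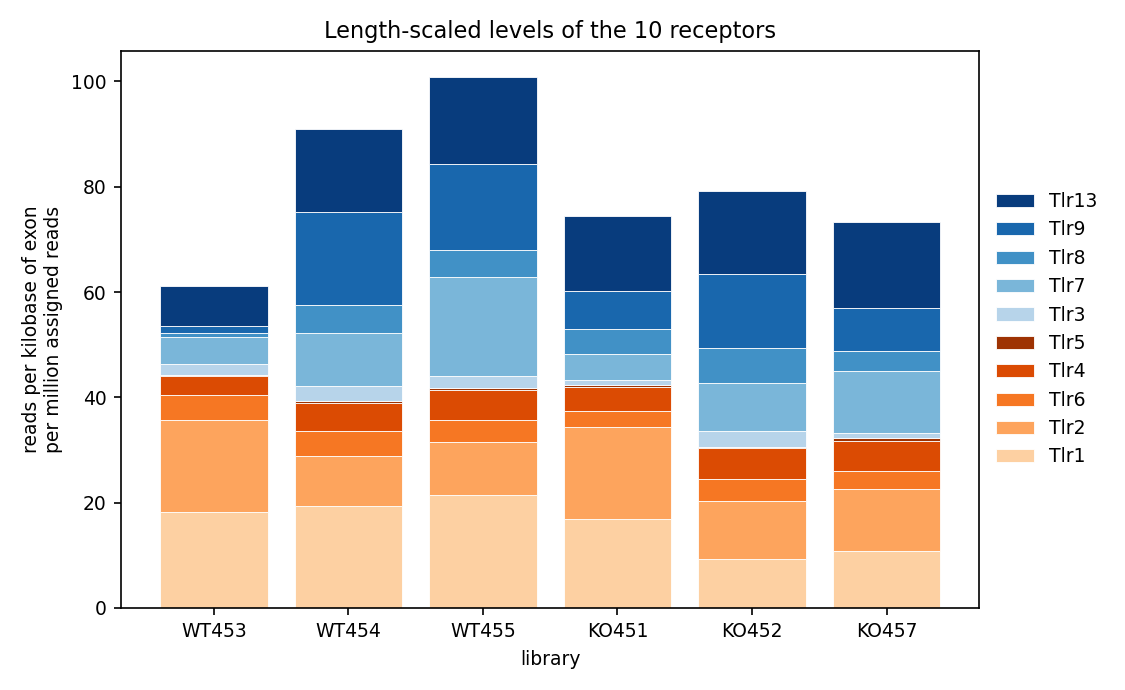
Length-scaled levels (RPKM) of the 10 receptors stacked for each library, cell surface receptors in orange and endosomal receptors in blue. The blue part is smallest in WT453, at 17.1, and the orange part lies between 30.6 and 44.2 in all 6 libraries.

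WT453 was the lowest library for 6 of the 10 receptors, namely Tlr4, Tlr5, Tlr7, Tlr8, Tlr9 and Tlr13, and the highest for Tlr6. Compared with the mean of WT454 and WT455, its log2 value was lower by 3.56 in Tlr9, by 2.65 in Tlr8, by 1.37 in Tlr7, by 1.03 in Tlr5, by 1.02 in Tlr13 and by 0.59 in Tlr4, and higher by 0.91 in Tlr2. WT454 and WT455 themselves differed by 0.10 in Tlr9 and by 0.01 in Tlr8. These are differences between animals labelled with the same genotype, and for 7 of the 10 receptors (Tlr2, Tlr4, Tlr5, Tlr7, Tlr8, Tlr9 and Tlr13) the distance of WT453 from the other wild-type libraries exceeded the difference between the genotype means. A single library varies more than a group mean, and the wild-type mean includes WT453. The share of all genes for which this holds was not computed, so the count is no result about the receptors.

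Markers of spleen cell types differed in the same library. Summed over 12 red pulp macrophage markers, WT453 had 1502 CPM, against 4559 and 5499 in the other wild-type libraries and 5534 to 9848 in knockout libraries. Summed over 8 plasmacytoid dendritic cell markers it had 166 CPM, against 276 to 679 in the others, and over 12 neutrophil markers it had 92423 CPM, against 5707 to 58243. For 10 B cell markers it had 1605 CPM, against 5422 in WT454, 4156 in WT455 and 1516 to 3154 in knockout libraries, and for 10 red cell precursor markers the sums were 304 to 945 CPM in wild-type and 2021 to 8426 CPM in knockout libraries. The other lists had narrower ranges, which for 10 monocyte markers were 1012 to 1878 CPM in wild-type and 1473 to 1988 CPM in knockout libraries, and for 10 conventional dendritic cell markers 310 to 591 and 292 to 478 CPM. The 10 red cell precursor markers and the 12 red pulp macrophage markers all had higher estimates in knockout, while those for B cells (10), T cells (10) and NK cells (8) were all lower. By limma 0 of 98 markers were called, where 0.00906% of all genes were. At an unadjusted limma p under 0.05 stood 10 of 10 red cell precursor and 6 of 12 red pulp macrophage markers, beside 11.0% of all genes. These counts include WT453 and are not given without it. Centred on the 6 libraries, the mean log2 value of red pulp macrophage markers was -1.75 in WT453, -0.16 in WT454 and 0.13 in WT455. It was 0.36 to 0.99 in knockout libraries. By the FDR of the authors' deposited table, 9 of 10 red cell precursor markers passed 0.05, among them Klf1 (log2 fold change 2.78) and Epb42 (2.94), beside 3.58% of its genes. The macrophage marker Cd5l (1.97) and the dendritic cell marker Zbtb46 (0.93) also passed there as higher, and Nkg7 of NK cells (-0.82) and Csf3r of neutrophils (-1.08) as lower. Sums for T cells were 674 to 1717 CPM in wild-type and 548 to 1109 CPM in knockout libraries, those for NK cells 295 to 695 and 261 to 463, and those for 8 endothelial markers 135 to 262 and 164 to 265. None of the markers was at 0 reads in any library, and the part that cell makeup has in the receptor values was not tested.

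**Figure D4:**
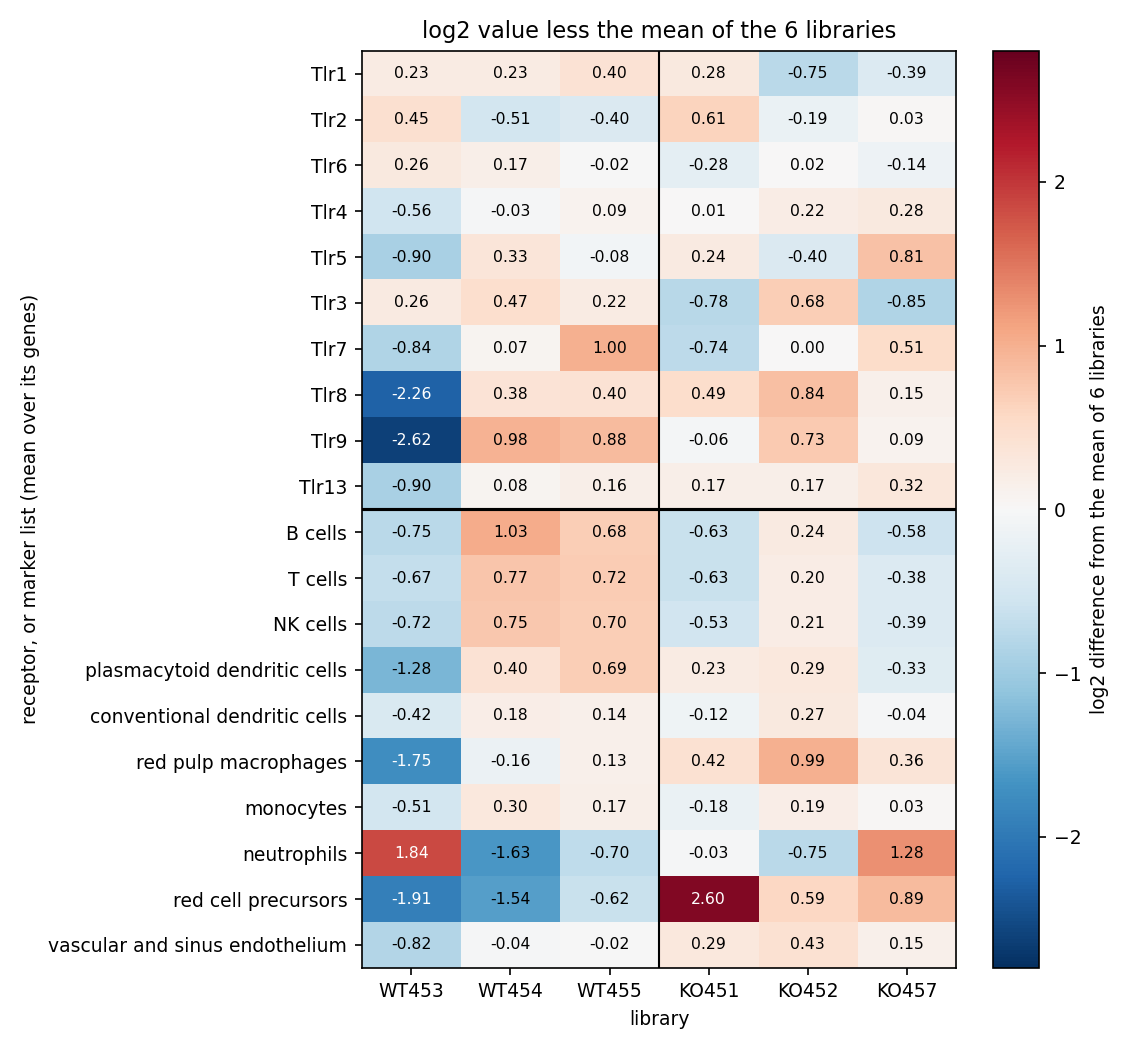
Log2 value of each receptor, and mean log2 value of each marker list, less its mean over the 6 libraries. Of the 6 libraries, WT453 is lowest for 6 receptors, Tlr8 (-2.26) and Tlr9 (-2.62) among them. It is also lowest for every marker list but that of neutrophils, for which it is highest (1.84). Its lowest list values are those of red cell precursor (-1.91) and red pulp macrophage markers (-1.75).

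For each receptor the most similar profile was sought among 178 pathway and marker genes, as the root mean square difference of log2 values after each gene was centred on its mean over the 6 libraries. This is a description over 6 libraries, which share a scaling and include WT453. Tlr8 was nearest to Axl (0.24) and Mertk (0.24), receptor kinases of macrophages, against its own spread of 1.03. Tlr9 was nearest to Cd180 (0.30), a B cell relative of the family, and then to Ikbkg (0.34), against a spread of 1.24. Tlr4 was nearest to the adaptor Ticam2 (0.13) and to its own partner Ly96 (0.18), against a spread of 0.27, and Tlr13 to Ticam2 (0.17) and the kinase Irak2 (0.22), against 0.41. The nearest gene was Flt3 (0.07) for Tlr6, Tab1 (0.22) for Tlr2, Clec10a (0.25) for Tlr1, Nr4a1 (0.27) for Tlr3, Clec9a (0.33) for Tlr5 and Cd163 (0.41) for Tlr7. Own spreads were 0.42 for Tlr1, 0.42 for Tlr2, 0.60 for Tlr3, 0.55 for Tlr5, 0.18 for Tlr6 and 0.65 for Tlr7. The distances of Tlr1, Tlr2, Tlr5 and Tlr7 were large beside the variation they describe. So were those of Tlr4 to Ly96 and of Tlr13 to Irak2.

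WT453 was the lowest library for 6 receptors, and the promoter windows of those with an entry, Tlr5, Tlr8, Tlr9 and Tlr13, were compared. RefSeq's table for GRCm38.p6 gave windows from 250 bases before to 50 bases after the start site for 8 of the 10 members, Tlr4 and Tlr7 being named only. The letters GAGGAAG, a form of the site of the myeloid and B cell factor PU.1, were searched on both strands, as was GAAA followed by any 2 bases and GAAA again, a form of the site of interferon regulatory factors. The first set of letters occurs in 13.6% and the second in 3.44% of all 32851 windows of this length. Capitals mark matches of either motif in the windows below, which lie on chromosome 9 (plus strand) at chr9:106222348-106222647 for Tlr9, on chromosome 1 (plus strand) at chr1:182954538-182954837 for Tlr5, and on chromosome X at chrX:167264280-167264579 (minus strand) for Tlr8 and at chrX:106143025-106143324 (plus strand) for Tlr13.

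Tlr9: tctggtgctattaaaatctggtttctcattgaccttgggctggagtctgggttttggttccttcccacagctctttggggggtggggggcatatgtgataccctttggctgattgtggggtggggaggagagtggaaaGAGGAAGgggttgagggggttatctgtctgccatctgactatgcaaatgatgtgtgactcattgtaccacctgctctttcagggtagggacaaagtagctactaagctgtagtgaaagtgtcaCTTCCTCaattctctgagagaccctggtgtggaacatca
Tlr5: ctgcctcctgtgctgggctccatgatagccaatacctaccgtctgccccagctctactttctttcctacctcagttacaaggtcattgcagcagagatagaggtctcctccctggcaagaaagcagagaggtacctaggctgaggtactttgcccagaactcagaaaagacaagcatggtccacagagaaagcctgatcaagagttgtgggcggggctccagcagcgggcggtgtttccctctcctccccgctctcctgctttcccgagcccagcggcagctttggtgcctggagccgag
Tlr8: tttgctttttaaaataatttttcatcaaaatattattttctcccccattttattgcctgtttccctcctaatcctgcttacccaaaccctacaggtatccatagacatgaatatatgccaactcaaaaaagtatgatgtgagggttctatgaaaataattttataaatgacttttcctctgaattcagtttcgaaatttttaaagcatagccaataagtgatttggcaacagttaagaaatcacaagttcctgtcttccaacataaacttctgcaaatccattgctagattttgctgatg
Tlr13: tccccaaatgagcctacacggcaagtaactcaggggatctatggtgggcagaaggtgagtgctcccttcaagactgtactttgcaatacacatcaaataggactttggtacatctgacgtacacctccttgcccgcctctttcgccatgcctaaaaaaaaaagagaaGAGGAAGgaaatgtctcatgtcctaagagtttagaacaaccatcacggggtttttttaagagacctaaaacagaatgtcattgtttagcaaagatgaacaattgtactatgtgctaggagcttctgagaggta

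Tlr9 held 2 matches of GAGGAAG, 1 on each strand, and Tlr13 held 1, whereas Tlr8 and Tlr5 held 0 of either motif. Among the other members 1 of the 2 Tlr1 windows held 1 match of GAGGAAG, and 1 of the 2 Tlr6 windows held 2 overlapping matches of the second motif. The windows of Tlr2 and Tlr3 held neither. The windows printed were chosen by values of WT453 in these same data, and a link between motifs and levels was not tested.

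The genes around the receptors were examined through 9 lists covering 89 genes, of which 87 were in the table and tested. None passed the adjusted threshold (limma), and 9 of 87, or 10.3%, had an unadjusted p under 0.05, close to the 11.0% of all genes. Estimates were higher in knockout for 34 and lower for 53. Groups did not overlap in 16 of 87 (18.4%), 6 higher (6.90%) and 10 lower (11.5%), beside 9.54% and 9.94% of all genes. Without WT453 the split was 35 higher and 52 lower with 0 called, but 19 of the 87 had changed sign.

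Partners at the surface and the remaining mouse receptors gave no call. Of 6 co-receptors and relatives 5 had higher estimates (median log2 fold change 0.34, 0 called). Ly86 and Cd180, which form a complex on B cells, had log2 fold changes of -0.05 (SE 0.32, -0.31 without WT453) and 0.30 (SE 0.72). Cd180 was 9.51 in WT453, against 11.30 to 12.42 in the others, and its estimate was -0.62 without that library, the same turn of sign as in Tlr9. The further mouse receptors Tlr11 (-0.07, SE 0.47) and Tlr12 (-0.17, SE 0.46), which bind profilin of parasites, were not members and gave adjusted p of 0.977 and 0.923 (limma). Without WT453 they were -0.42 and -0.58.

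Genes that carry or process the endosomal receptors went both ways. Of 12 measured, 6 had higher and 6 lower estimates, the median was -0.06 on the log2 scale and 0 were called. Ctsb, a lysosomal protease, was 16.15, 16.65 and 16.22 on the log2 scale in KO451, KO452 and KO457 and 14.75, 15.54 and 15.73 in WT453, WT454 and WT455, so that each knockout library was above each wild-type library. Its log2 fold change was 1.0 (SE 0.32, limma unadjusted p = 0.0151, adjusted p = 0.358), or 0.71 without WT453. Red pulp macrophage markers also summed higher in each knockout library, though narrowly, at 5534 CPM in KO451 against 5499 CPM in WT455. A link between these markers and Ctsb was not tested. Ctss, another lysosomal protease, had 0.10 (SE 0.35) and turned to -0.23 without WT453. Unc93b1, named after its values were seen, had 13.02 to 13.83 in knockout and 13.60 to 13.92 in wild-type libraries and a log2 fold change of -0.32 (SE 0.25, limma adjusted p = 0.673), or -0.22 without WT453. It was highest in WT453 (13.92), just above KO452 (13.83), and 31.7% of all genes tested were highest in WT453. Of the 6 nucleases that degrade receptor ligands 3 had higher and 3 lower estimates, among them Pld3 (0.60, SE 0.40) and Pld4 (-0.09, SE 0.21), exonucleases of endosomes, with 0 called. Without WT453 these were 0.21 and -0.14.

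Signalling genes downstream included no call by limma. Among 5 adaptors, Myd88 gave -0.17 (SE 0.27) and Ticam1 gave -0.03 (SE 0.21) on the log2 scale, and the list median was 0.10. Without WT453, Myd88 turned to 0.08, Ticam1 was -0.09 and the median was 0.02. Of 17 kinases and ubiquitin enzymes, 9 had lower estimates (median -0.08). By the FDR of the authors' deposited table, 1 of 87 pathway genes passed 0.05, beside 3.58% of all genes there. That gene was Ikbkb, the kinase that releases NF-kappaB, at 0.0230. Its log2 values were 11.0, 11.46 and 11.15 in KO451, KO452 and KO457 and 12.21, 11.78 and 11.85 in WT453, WT454 and WT455, without overlap. The limma log2 fold change was -0.75 (SE 0.22, unadjusted p = 0.0103, adjusted p = 0.350), and -0.61 without WT453.

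Other pathway genes below an unadjusted limma p of 0.05 were named after their values were seen. Traf6, the ubiquitin ligase shared by the Myd88 branch, had a log2 fold change of -0.44, and values of 10.36 to 10.57 in knockout and 10.91 to 10.95 in wild-type libraries. Irf3, a factor of the Ticam1 branch, had -0.55, Sigirr, a receptor that dampens signalling, had -0.91, and Dusp1, a phosphatase of stress kinases, had -1.03. In each of these the groups did not overlap, as in 9.94% of all genes with every knockout library lower, and without WT453 they were -0.43, -0.39, -0.83 and -0.68. The anti-inflammatory cytokine Il10 had 1.75, at means of 0.234 CPM in wild-type and 0.792 CPM in knockout libraries. These are so few reads that the size of its change is uncertain. The proteases Ctsl (0.77, or 0.52 without WT453, groups overlapping) and Ctsk complete the 9. Ctsk was at 0 in KO451 and KO452 and 2.04 in KO457, against 2.56 to 4.80 in wild-type libraries, too few reads for a fold. Adjusted p for these genes lay between 0.350 and 0.442 (limma), Ctsb and Ikbkb included.

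Transcription factors, inhibitors and targets had mostly lower estimates and 0 calls, and the sizes moved with WT453. Of 9 transcription factors, 7 had lower estimates (median -0.08), with Nfkb1 at -0.08 (SE 0.37) and Irf8, which is also made by dendritic and B cells, at -0.29 (SE 0.46). Without WT453, 8 were lower (median -0.39), with Nfkb1 at -0.49 and Irf8 at -0.64. Of 13 negative regulators, 10 had lower estimates (median -0.19), with Nfkbia at -0.39 (SE 0.24) and Inpp5d at -0.07 (SE 0.19). Without WT453, 10 were again lower (median -0.30), with Nfkbia at -0.17 and Inpp5d at -0.14. Of 17 measured cytokines and other induced targets, 13 had lower estimates (median -0.56), and 10 without WT453 (median -0.14), 5 having changed sign. Among those was Tnf, named after its values were seen, which went from -0.66 to 0.11. Il1b, an inflammatory cytokine, had -0.56 (SE 0.38) and the chemokine Ccl5 -0.46 (SE 0.37), which were -1.0 and -0.85 without WT453. The median of all genes tested was -0.03, and -0.01 without WT453.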

How the data were processed

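Total RNA of 6 spleens was sequenced from mRNA libraries, per the labels' protocols. GRCm38, STAR 2.5.3a, StringTie 1.3.1c, FastQC 0.11.5 and DESeq stand in the submitters' processing notes without roles. No source used here gives the counting step, the annotation or the strand setting. The authors deposited a log2 value per gene and library, the log2 of a size-factor-scaled read count plus 1, as read from the values (whole reads recovered for 100% of nonzero values within 0.001). Group means, log2 fold changes and, from a test not stated, p-values with their FDR were deposited too.

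Groups were compared with limma 3.58.1 (R 4.3.3) with an intensity trend on the deposited log2 values, over 22071 genes with a mean normalized count of at least 1, and Benjamini-Hochberg adjustment at 0.05. All 10 members passed that filter. The fit was tested on simulated negative binomial counts, in which no library stands apart as WT453 does. That run does not show how the fit handles such a library. Log2 fold changes on this scale understate changes of low genes, and the p-values reflect only variation among these 6 animals. Titles share no numbers, so nothing was paired. The 3 pairs used exact permutation tests (scipy 1.17.1). Lengths and positions came from GENCODE M21. Intervals have a level of 95%.

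The members and lists were chosen with earlier results of these data known. Of 197 list genes 195 were matched. Named were all members and, in each pathway list, genes past a threshold (limma's or the authors' FDR, at most 4) or else the 2 with the highest mean, other names being marked. Of marker lists, described by counts and sums, only genes past a threshold (at most 2) were named. Alternatives were pseudocounts of 0.1 and 10, other filters, scalings, voom fits, a threshold of 0.1, each library left out, and transcript length. Marker lists for T cells, NK cells and endothelium were also fixed, and 0 of 98 markers were called.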

Additional observations from a re-analysis of the deposited data

How the results depend on the processing

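No member and no pathway gene was called under any alternative run, the threshold of 0.1 included. Few genes of any kind were called at 0.05, at most 4 in a run (voom with quality weights). The fits without KO451, KO452, KO457, WT454 or WT455 called 0 of 22071 genes. The share of all genes called at 0.1 was not computed. The lack of calls is therefore no result about the receptors. Over 15 alternatives per member, 146 of 150 log2 fold changes kept their direction and adjusted p lay between 0.153 and 0.978 (limma). The other filters could not alter a member's log2 fold change, so agreement there was fixed in advance. The 4 reversals came with quality weights or a library left out, in Tlr9 and Tlr7. Tlr9 was -0.53 in voom with quality weights and ranged from -0.68 (without WT453) to 1.12 over the libraries left out. Tlr7 ranged from -0.61 to 0.31 over the libraries left out. Among the within-library differences, knockout less wild type, Tlr1 less Tlr6 (from -0.66 to 0.0083) and Tlr7 less Tlr9 (from -1.28 to 0.072) changed sign when a library was left out. The order of levels was the same with the length of the longest transcript, at 0 of 10 members moved. Depth bears most on Tlr5, the member with the fewest reads (mean normalized count 48.5).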
